A study of Mus musculus with 20 samples.

Results

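The genes described here are the muscle atrophy ubiquitin ligase genes *Fbxo32*, *Trim63*, *Fbxo40* and *Fbxo30*, the regulator genes *Foxo3* and *Mstn*, and the metallothionein genes *Mt1* and *Mt2*, taken as all probes that the array annotation assigns to these symbols. They have 13 probes for 8 genes, of 25697 probes with 16593 gene symbols on the array. Each probe was kept by itself, because the 3 probes of *Fbxo32* did not read alike. RNA of gastrocnemius muscle and of liver was measured on 20 Illumina mouse bead arrays, 5 for each tissue in Adck2+/- mice and 5 in wild type (WT) mice. The Adck2+/- mice carried 1 deleted *Adck2* allele in the whole body, from embryonic stem cells that were heterozygous for the deletion. *Adck2* encodes a mitochondrial kinase-like protein. All mice were males of the strain labelled B6N, with no treatment named in the labels, and the study bred the line on C57BL/6. The labels give an age of 3 years and reagents for Illumina arrays, whereas the methods section gives 6 months and an Affymetrix GeneChip. The probes carry Illumina names, and which age holds could not be settled. The study's methods name 5 mice per genotype as the source of both tissues, which would make muscle and liver samples of the same mice, but no label ties a muscle array to a liver array. The arrays were treated as independent, and the p-values measure the spread between these samples. With equal numbers taken as the same mouse in both tissues, no call for a member probe changed in the comparisons between the tissues.

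Muscle mass is kept by a balance between protein synthesis and breakdown, and the ubiquitin-proteasome system carries out much of the breakdown. *Fbxo32* encodes atrogin-1 and *Trim63* encodes MuRF1, the ubiquitin ligases known for their rise when muscle wastes in fasting, denervation or disease. FoxO transcription factors, such as the one encoded by *Foxo3*, induce these ligases, and myostatin, the secreted product of *Mstn*, restrains muscle growth. *Fbxo40* and *Fbxo30* encode further F-box proteins of muscle, which select substrates for cullin ligases. Metallothioneins are small cysteine-rich proteins that bind zinc and copper, are induced by metals, oxidants and glucocorticoids, and are known to rise in wasting muscle. In the mouse genome (GRCm38.p6) *Fbxo32* lies at chr15:58175879-58214892, *Trim63* at chr4:134315120-134329629, *Fbxo40* at chr16:36963461-36990530, *Fbxo30* at chr10:11281330-11305750, *Foxo3* at chr10:42181845-42276695 and *Mstn* at chr1:53061640-53068079. *Mt2* (chr8:94172618-94173567) and *Mt1* (chr8:94178883-94180327) are neighbours. The part of each transcript that a probe binds was not looked up here.

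The median signal of an array ranged from 131.3 to 189.8 in Adck2+/- muscle and from 131.7 to 172.8 in WT muscle, and between 11626 and 12604 probes were detected per muscle array at a detection p under 0.05. All 9 measured markers of muscle fibres were detected on all 10 muscle arrays. The single *Adck2* probe was detected on 2 of 5 Adck2+/- and 1 of 5 WT muscle arrays, which gave no check of the genotypes. Muscle arrays also carried signal of genes that mark other tissues. The mean over 7 liver markers was 5.58, 6.86, 6.0, 10.5 and 6.84 on the log2 scale in Adck2+/- mice 1 to 5, against 9.02, 5.46, 7.97, 7.88 and 7.70 in WT mice 1 to 5. Adck2+/- mouse 4 thus had the highest liver-marker signal. Of the 10 liver markers listed, *Alb* and *Fgb* were detected on 0 of 10 muscle arrays, and *Fgb* on 0 of 10 liver arrays as well. The *Alb* probe was dim even in liver, with a median signal of 228.4, against 13410 for *Cps1* and more for the other detected liver markers. Its absence in muscle thus says little about liver signal there. The mean over 5 adipocyte markers was 7.74, 8.46, 7.60, 7.84 and 9.99 in Adck2+/- mice 1 to 5, against 9.07, 6.88, 9.03, 8.57 and 8.69 in WT mice 1 to 5. Adck2+/- mouse 5 had the highest adipocyte signal of all, and none of the liver or adipocyte markers passed the genotype test in muscle. In tissue RNA of this kind, fewer cells of a type and less RNA per cell cannot be told apart.

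In muscle, *Fbxo40* and 1 of the 3 probes of *Fbxo32* were higher in Adck2+/- than in WT mice, and no member probe was lower past the test. For *Trim63* the difference was small, with a 95% interval of −0.19 to 0.40 on the log2 scale. The metallothionein genes *Mt1* and *Mt2* had lower means in Adck2+/- muscle, and neither passed. Of the 13 probes, 11 were detected on at least 5 of the 10 muscle arrays and were tested. At an adjusted p under 0.05 from limma, 3 of these 11 were called, all higher. Among all 12115 probes tested in muscle, 5.54% were called (671), with 3.99% higher (483) and 1.55% lower (188). The values of the 2 genotypes did not overlap for *Fbxo32* ILMN_2715893, *Fbxo40* ILMN_3163206 and *Fbxo30* ILMN_2861445, where 7.99% of all probes did not (968 of 12115). They did not overlap for *Mt2* either, a probe that entered the test through the WT mice alone. With arrays scaled to a common median, the calls over all probes split into 335 higher and 402 lower, against 483 and 188 with quantile normalization, and the 3 member probes called higher kept their calls, while *Mt1* was then called lower. Levels are log2 signals after background correction and quantile normalization within a tissue, and differences are log2 fold changes, Adck2+/- minus WT, unless another scale is named.

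**Figure D1:**
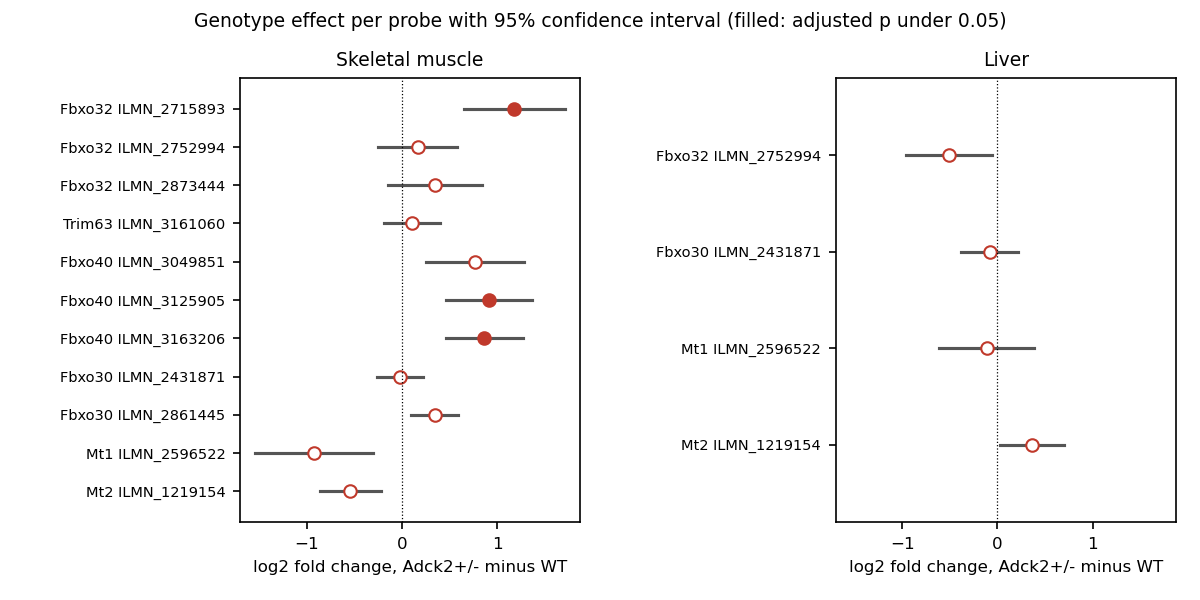
Log2 fold change, Adck2+/- minus WT, of each member probe detected in skeletal muscle (left, 11 probes) and in liver (right, 4 probes), from 5 arrays per genotype. Lines are 95% confidence intervals of the limma fit and filled points mark an adjusted p under 0.05. The 3 filled points are 1 probe of Fbxo32 and 2 probes of Fbxo40 in muscle, and no liver point is filled.

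*Fbxo32* encodes atrogin-1, the F-box protein of an SCF ubiquitin ligase of muscle. Its probe ILMN_2715893 read 10.27, 10.37, 11.59, 11.04 and 10.98 in Adck2+/- mice 1 to 5, against 9.97, 9.71, 9.31, 9.98 and 9.36 in WT mice 1 to 5. All 5 Adck2+/- values lay above all 5 WT values, and Adck2+/- mouse 3 was the highest. On the linear scale, before normalization, its signal was 1359, 1746, 4076, 1504 and 1745 in Adck2+/- mice 1 to 5, against 1470, 915.4, 730.7, 929.8 and 695 in WT mice 1 to 5. There, Adck2+/- mouse 1 was below WT mouse 1, so the separation of the genotypes appeared only after normalization. The mean was 10.85 ± 0.54 in Adck2+/- muscle and 9.66 ± 0.32 in WT muscle (SD, n = 5 each), a log2 fold change of 1.18 (standard error 0.24, adjusted p = 0.0196), or 2.27-fold with a 95% interval of 1.57 to 3.28. Without WT mouse 5 the value was 1.11 and no longer passed (adjusted p = 0.0533), and it passed without any other single array.

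The other probes of *Fbxo32* did not separate the genotypes. Probe ILMN_2752994 read 11.73, 12.22, 12.91, 12.44 and 12.57 in Adck2+/- mice 1 to 5, against 12.13, 12.05, 12.51, 12.14 and 12.20 in WT mice 1 to 5. The groups overlapped, with Adck2+/- mouse 1 the lowest of all 10 and Adck2+/- mouse 3 the highest. Its log2 fold change was 0.17 (standard error 0.19, adjusted p = 0.629), with a 95% interval of −0.25 to 0.58. Probe ILMN_2873444 read 10.54, 11.23, 12.00, 11.38 and 11.62 in Adck2+/- mice 1 to 5, against 10.90, 10.76, 11.28, 11.00 and 11.11 in WT mice 1 to 5. Its order of the mice was close to that of ILMN_2752994, with Adck2+/- mice 1 and 3 again at the ends. Its log2 fold change was 0.34 (standard error 0.23, adjusted p = 0.374), with a 95% interval of −0.15 to 0.84.

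The disagreement among these probes was larger than the spread between mice. It was known from these same data when the probes were kept apart, so the test describes its size and is not independent support. The difference of the genotype effect between ILMN_2715893 and ILMN_2752994 was 1.02 on the log2 scale, and between ILMN_2715893 and ILMN_2873444 it was 0.84 (exact permutation test of the per-mouse differences between probes, two-sided p = 0.00794 for each, the smallest that 5 against 5 mice allow). Adjusted over the 7 probe pairs of *Fbxo32*, *Fbxo40* and *Fbxo30*, p was 0.0278 for both pairs. Between ILMN_2752994 and ILMN_2873444 the effects differed by −0.18 (exact permutation p = 0.0317, adjusted p = 0.0556). In WT mice the probes even ordered the animals differently. WT mouse 3 was the lowest of the WT mice on ILMN_2715893 (9.31) and the highest of them on ILMN_2752994 (12.51) and ILMN_2873444 (11.28). Over the 10 muscle arrays, after subtracting the genotype means, the genes most like ILMN_2715893 were *Cyld* (Pearson r = 0.94), *Slc25a36* (0.91) and *Amy2a5* (0.89). For ILMN_2752994 they were *Nfil3* (0.97), *Slc16a9* (0.96) and *Lrrc75a* (0.94), and for ILMN_2873444 *Fam83g* (0.95), *Nfil3* (0.95) and *Slc16a9* (0.93), among 8423 genes compared for each. The lists of ILMN_2752994 and ILMN_2873444 thus shared *Nfil3* and *Slc16a9*, and that of ILMN_2715893 shared no gene with them. Such lists, here and below, hold the highest of many correlations over 10 arrays. No chance level was computed for them, and they are a description only.

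Which *Fbxo32* probe carried the rise depends on the table read. The study also deposited a value table that holds the same signals, and in it 2165 of 25697 probes carry the numbers of another probe, 2048 of them those of a probe of the same gene. All 3 *Fbxo32* probes are among them. In that table the series of values that rose stands under ILMN_2752994, that of ILMN_2752994 under ILMN_2873444, and that of ILMN_2873444 under ILMN_2715893. Read from it, without background correction, ILMN_2752994 had a log2 fold change of 1.08 (adjusted p = 0.0154) and ILMN_2715893 one of 0.33 (adjusted p = 0.344). The same 2 series in the table used here, also without background correction, gave 1.08 and 0.33 as well. In either table, a single series of *Fbxo32* values rose and the other 2 did not pass. The rows of the other member genes were identical in the 2 tables.

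**Figure D2:**
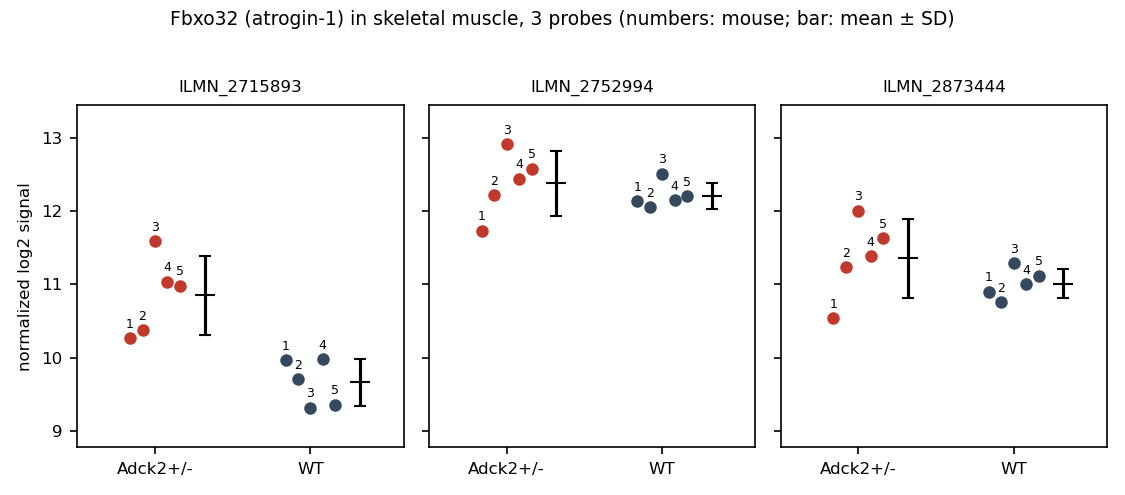
Normalized log2 signal of the 3 Fbxo32 probes in skeletal muscle, one point per mouse with its replicate number, Adck2+/- left and WT right, with the mean and SD beside each group. On ILMN_2715893 the 5 Adck2+/- values (10.27 to 11.59) lie above the 5 WT values (9.31 to 9.98), whereas on the other probes the groups overlap; levels of different probes are not comparable.

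*Trim63* encodes MuRF1, a RING-finger ligase of the sarcomere that is induced together with atrogin-1 in many forms of wasting. Its probe read 10.22, 10.04, 10.71, 10.26 and 10.15 in Adck2+/- mice 1 to 5, against 9.98, 10.34, 10.15, 10.21 and 10.16 in WT mice 1 to 5. The groups overlapped, and only Adck2+/- mouse 3, which was also the highest on all 3 *Fbxo32* probes, exceeded WT mouse 2. The log2 fold change was 0.11 (standard error 0.13, adjusted p = 0.667), and −0.00455 without Adck2+/- mouse 3. Across the 10 muscle arrays, *Trim63* and the *Fbxo32* probe ILMN_2752994 gave Pearson r = 0.52 and Spearman rho = 0.02 (permutation p = 0.129 and 0.973, adjusted over 6 pairs of members 0.639 and 0.973), and r was −0.03 without Adck2+/- mice 1 and 3. None of the 6 pairs of members tested in this way passed. The genes most like *Trim63* within genotypes were *Abhd10* (r = 0.93), *Tmem38b* (0.92) and the glucocorticoid-induced *Fkbp5* (0.92).

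Sequence 250 bases before to 50 bases after the start site was at hand from RefSeq (GRCm38.p6) for 7 of the 8 genes. The window of *Trim63* is shown because it was the only one of theirs with the FoxO motif GTAAACA, searched on both strands. It lies at chr4:134314870-134315169 on the plus strand, the capitals mark the motif, which reads on the opposite strand, and its first base is 194 bases before the start site. Of 32851 windows of this length in the mouse genome, 3.65% hold at least 1 such match, and a match is a description of the letters, not of binding.
Trim63: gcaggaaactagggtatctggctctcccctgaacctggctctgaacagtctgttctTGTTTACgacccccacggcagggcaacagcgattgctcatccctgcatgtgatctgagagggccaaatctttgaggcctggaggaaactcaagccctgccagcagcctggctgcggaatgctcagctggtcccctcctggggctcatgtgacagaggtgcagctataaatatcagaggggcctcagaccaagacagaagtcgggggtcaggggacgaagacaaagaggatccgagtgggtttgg

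*Fbxo40*, which encodes an F-box protein known in mouse muscle for acting on the insulin receptor substrate IRS1, had higher means in Adck2+/- mice on all 3 of its probes and passed the test on 2 of them. Probe ILMN_3163206 read 6.66, 6.40, 7.01, 6.82 and 6.34 in Adck2+/- mice 1 to 5, against 5.50, 6.18, 5.50, 5.56 and 6.17 in WT mice 1 to 5. All Adck2+/- values lay above all WT values, with WT mice 2 and 5 close below Adck2+/- mouse 5, the lowest of its group. Its mean was 6.65 ± 0.28 in Adck2+/- muscle and 5.78 ± 0.36 in WT muscle (SD, n = 5 each), a log2 fold change of 0.87 (standard error 0.19, adjusted p = 0.0224). Probe ILMN_3125905 read 7.40, 6.93, 7.85, 8.07 and 7.47 in Adck2+/- mice 1 to 5, against 6.75, 7.04, 6.28, 6.56 and 6.52 in WT mice 1 to 5. Here Adck2+/- mouse 2 was below WT mouse 2, and the other Adck2+/- mice lay above every WT mouse. Its mean was 7.54 ± 0.44 in Adck2+/- muscle and 6.63 ± 0.28 in WT muscle, a log2 fold change of 0.91 (standard error 0.21, adjusted p = 0.0283).

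The third probe of *Fbxo40*, ILMN_3049851, was close to the detection limit, with a signal above background in 4 of 5 Adck2+/- mice and 2 of 5 WT mice. It read 6.09, 5.79, 6.59, 6.41 and 5.17 in Adck2+/- mice 1 to 5, against 5.42, 5.47, 4.88, 5.29 and 5.14 in WT mice 1 to 5. Adck2+/- mouse 5 was within the WT range. The log2 fold change was 0.77 (standard error 0.24, adjusted p = 0.0772), and 0.98 (adjusted p = 0.0141) without Adck2+/- mouse 5. The effect of ILMN_3049851 differed from that of ILMN_3125905 by −0.14 and from that of ILMN_3163206 by −0.10, and the effect of ILMN_3125905 differed from that of ILMN_3163206 by 0.05, all within the spread between mice (exact permutation p = 0.667, 0.643 and 0.817). The calls were close to the threshold. That of ILMN_3163206 was lost without WT mouse 1 (adjusted p = 0.0504), WT mouse 3 (0.0523) or Adck2+/- mouse 3 (0.0628). That of ILMN_3125905 was lost without WT mouse 3 (0.0650), WT mouse 4 (0.0561), WT mouse 5 (0.0703) or Adck2+/- mouse 3 (0.0809), and with no filter on dim probes (0.0550). Without background correction the log2 fold changes were smaller, at 0.34 for ILMN_3163206 and 0.50 for ILMN_3125905, which still passed (adjusted p = 0.0345 and 0.0310), and at 0.26 for ILMN_3049851, which did not (adjusted p = 0.105). Before normalization the signals of ILMN_3163206 overlapped, at 176.1 to 308.7 in Adck2+/- and 143.9 to 188.9 in WT mice.

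*Fbxo30*, known in mice as the ligase MUSA1 of muscle loss after denervation, had probes that read differently. Probe ILMN_2861445 read 6.22, 5.87, 5.71, 5.92 and 5.86 in Adck2+/- mice 1 to 5, against 5.71, 5.61, 5.46, 5.53 and 5.54 in WT mice 1 to 5. The groups did not overlap, with Adck2+/- mouse 3 just above WT mouse 1. The log2 fold change was 0.35 (standard error 0.11), and did not pass the adjustment over all probes (adjusted p = 0.0894). It was 0.11 (adjusted p = 0.258) without background correction, and before normalization the signals overlapped, at 148.9 to 213.3 in Adck2+/- and 143 to 199 in WT mice. Probe ILMN_2431871 read 9.58, 9.65, 9.50, 9.34 and 9.21 in Adck2+/- mice 1 to 5, against 9.48, 9.55, 9.34, 9.54 and 9.49 in WT mice 1 to 5. The groups overlapped, and the log2 fold change was −0.02 (standard error 0.11, adjusted p = 0.920), with a 95% interval of −0.27 to 0.22. The effects of the 2 probes differed by −0.37 (exact permutation p = 0.0238, adjusted p = 0.0556). Within genotypes, ILMN_2431871 followed *Per1* (r = 0.98), a clock gene that glucocorticoids induce, *Lynx1* (0.98) and *Tmc7* (0.97).

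**Figure D3:**
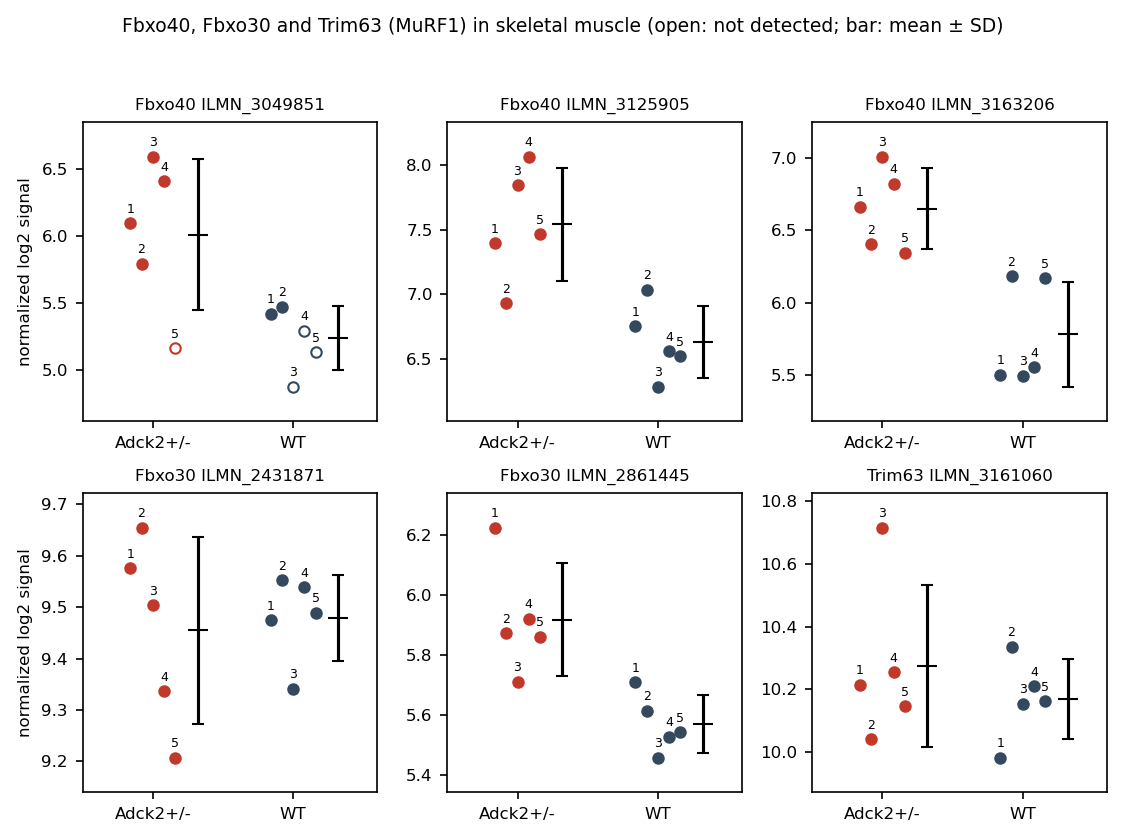
Normalized log2 signal of the probes of Fbxo40, Fbxo30 and Trim63 in skeletal muscle, one point per mouse, Adck2+/- left and WT right, with mean and SD; open points were not detected. On Fbxo40 ILMN_3163206 and Fbxo30 ILMN_2861445 every Adck2+/- point lies above every WT point, and on Trim63 the groups overlap.

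*Foxo3* and *Mstn* could not be compared. Their single probes were detected on 0 of 20 arrays, with muscle signals of 115.3 to 170.4 in Adck2+/- and 111.1 to 138.5 in WT mice for *Foxo3*, and of 112.1 to 152.5 in Adck2+/- and 106.9 to 143.4 in WT mice for *Mstn*. These values lie at the background of the arrays, and say only that the transcripts were not detectable with these probes.

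*Mt1* was lower in 4 of the 5 Adck2+/- mice than in any WT mouse. It read 9.74, 9.80, 9.64, 9.94 and 11.21 in Adck2+/- mice 1 to 5, against 11.54, 10.75, 10.90, 11.10 and 10.65 in WT mice 1 to 5. Adck2+/- mouse 5 lay among the WT mice, above 4 of them. The mean was 10.07 ± 0.65 in Adck2+/- muscle and 10.99 ± 0.35 in WT muscle (SD, n = 5 each), a log2 fold change of −0.92 (standard error 0.28, adjusted p = 0.0744). Without Adck2+/- mouse 5 it was −1.21 (adjusted p = 0.0107), with arrays scaled to a common median it was −0.98 (adjusted p = 0.0312), and with array weights −0.97 (adjusted p = 0.0379). Adck2+/- mouse 5 was also the highest of all 10 mice in the mean of 5 adipocyte markers (9.99) and in that of 6 denervation genes (8.52, against 7.40 to 7.83 in the other Adck2+/- mice and 7.52 to 7.77 in WT mice). WT mouse 1, with the highest *Mt1*, had the highest adipocyte and liver marker means among WT mice. The part of these cell types in the *Mt1* values was not tested.

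*Mt2*, whose product shares the metal-binding fold of *Mt1*, read 5.01, 4.83, 4.93, 5.27 and 4.84 in Adck2+/- mice 1 to 5, against 5.29, 5.92, 5.33, 5.68 and 5.35 in WT mice 1 to 5. All Adck2+/- values lay below all WT values, with Adck2+/- mouse 4 just below WT mouse 1. The probe was detected in 0 of 5 Adck2+/- mice and in 5 of 5 WT mice, so it was tested through the WT group alone and had to differ in that direction. The fitted log2 fold change was −0.54 (standard error 0.15, adjusted p = 0.0525), and its size rests on values at the background in Adck2+/- mice. Without Adck2+/- mouse 4, the mouse with the highest liver-marker signal, it was −0.61 (adjusted p = 0.0455), and without background correction −0.17 (adjusted p = 0.124). Before normalization the signals overlapped, at 127.5 to 179.9 in Adck2+/- and 137.2 to 179.1 in WT mice. With undetected values set at the detection limit, WT muscle was higher by at least 0.066 on the log2 scale. This is the smaller of the bounds with and without background correction. *Mt1* and *Mt2* did not follow each other within genotypes (Pearson r = −0.28, Spearman rho = −0.15 over 10 arrays, permutation p = 0.458 and 0.683, adjusted p = 0.632 and 0.849). The genes most like *Mt1* within genotypes were *Rab3d* (r = 0.96), *Tmem120a* (0.95) and *Sprr2a1* (0.94), and *Mt2* was most like *Abcb8* (0.96).

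The start site windows of both metallothionein genes are shown because both had lower means and because metallothionein genes are textbook targets of the metal-responsive factor MTF1, which binds metal response elements. The pattern TGCNCNC, where N is any base, was searched on both strands for the core of these elements and is in capitals. It is permissive at the N positions, so a match describes the letters and need not be a metal response element or a bound site. The *Mt2* window (RefSeq, GRCm38.p6, chr8:94172368-94172667, plus strand) holds 6 matches, a number that 0.225% of 32851 mouse windows reach. The *Mt1* window (chr8:94178839-94179138, plus strand) holds 3, which 7.1% reach, but its start site lies 206 bases inside the gene as RefSeq gives it, so it covers less of the upstream region. No window of a metallothionein gene held the FoxO motif, so the motifs do not overlap there.
Mt2: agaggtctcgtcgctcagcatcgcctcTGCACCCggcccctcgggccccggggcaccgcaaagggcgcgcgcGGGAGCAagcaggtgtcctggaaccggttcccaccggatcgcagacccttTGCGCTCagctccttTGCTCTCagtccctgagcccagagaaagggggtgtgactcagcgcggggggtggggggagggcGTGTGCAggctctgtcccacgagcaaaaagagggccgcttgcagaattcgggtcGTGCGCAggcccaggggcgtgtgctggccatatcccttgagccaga
Mt1: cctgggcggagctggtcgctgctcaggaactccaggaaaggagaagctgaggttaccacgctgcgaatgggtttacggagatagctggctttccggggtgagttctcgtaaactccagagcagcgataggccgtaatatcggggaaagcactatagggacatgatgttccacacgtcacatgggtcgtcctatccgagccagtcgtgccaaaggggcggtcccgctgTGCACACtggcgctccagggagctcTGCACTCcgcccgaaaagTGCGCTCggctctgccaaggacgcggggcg

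**Figure D4:**
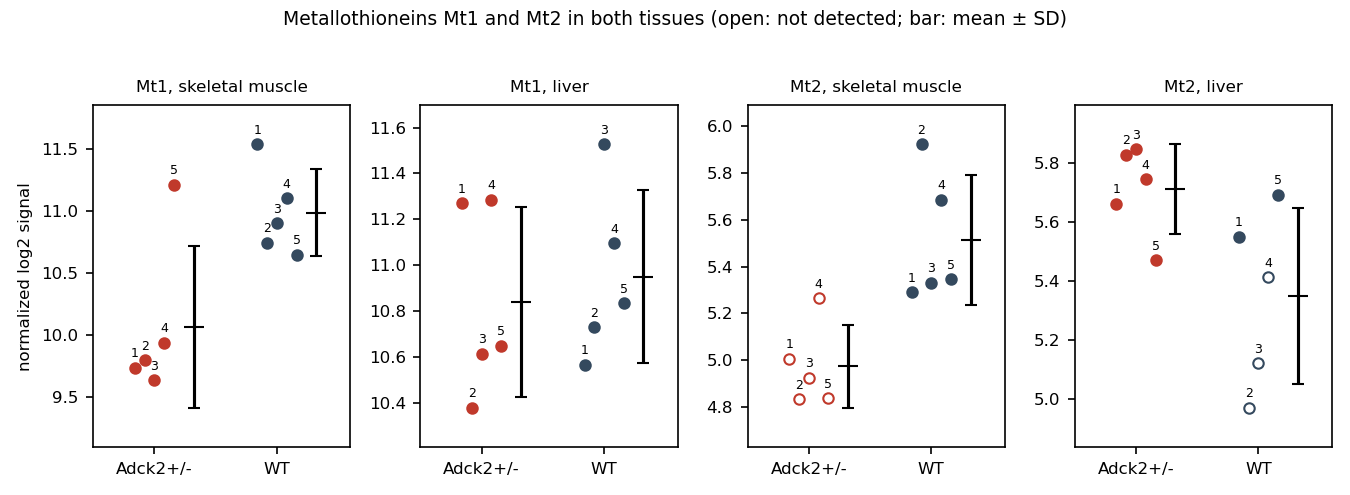
Normalized log2 signal of Mt1 and Mt2 in skeletal muscle and liver, one point per mouse, Adck2+/- left and WT right, with mean and SD; open points were not detected. In muscle Adck2+/- mouse 5 stands apart from the other Adck2+/- mice for Mt1 (11.21 against 9.64 to 9.94), and Mt2 was undetected in all Adck2+/- mice, whereas in liver it was detected in 5 Adck2+/- and 2 WT mice.

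Around these genes, few other components of the pathway passed the test in muscle, by the probe with the highest mean signal of each gene. Over all 8424 genes measured in this way, 163 were higher, 140 were lower and the median log2 fold change was −0.01. Of the FoxO factors beside *Foxo3*, 2 were measured, none passed and the median was −0.34. *Foxo6* was at −0.53 (standard error 0.19, adjusted p = 0.107) and *Foxo1* at −0.16. *Foxo6* was dim, with means of 5.06 in Adck2+/- and 5.59 in WT muscle, near the detection limit of 5.20 to 5.44. The size of its difference, and with it the median, thus rests partly on background values. Of 11 measured genes of myostatin and activin signalling, none passed (median −0.08). *Acvr2a*, an activin receptor that also takes part in myostatin signalling, was at 0.47 (standard error 0.16, adjusted p = 0.103) with every Adck2+/- value above every WT value, and *Wfikkn2*, which encodes a myostatin-binding protein, was at −0.49 (adjusted p = 0.219). *Wfikkn2* was dim as well, with means of 5.23 in Adck2+/- and 5.73 in WT muscle.

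Of 8 genes of the SCF core and of ubiquitin transfer, 1 was higher and 7 did not pass (median 0.05). The one that rose was *Ube2d3*, a ubiquitin-conjugating enzyme (0.48, standard error 0.12, adjusted p = 0.0427), with overlapping groups. *Nedd8*, the modifier that activates cullins, was at −0.69 (standard error 0.23, adjusted p = 0.0898). Of 8 other ubiquitin ligases of muscle none passed (median 0.10), with *Mul1*, a mitochondrial ligase, at 0.41 (standard error 0.13, adjusted p = 0.0831, groups not overlapping) and *Asb2* at 0.21 (adjusted p = 0.378). Of 13 other FoxO-dependent genes of atrophy none passed (median 0.15), and the smallest p-values were those of *Ddit4*, an inhibitor of mTORC1 signalling, at −1.04 (standard error 0.49, adjusted p = 0.212), and *Txnip* at 0.34 (adjusted p = 0.245).

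Of 6 genes induced by denervation none passed (median 0.14), with *Ncam1* at −0.44 (adjusted p = 0.234) and *Chrng*, the fetal subunit of the acetylcholine receptor, at 1.01 (standard error 0.56, adjusted p = 0.290). *Chrng* averaged 6.11 in Adck2+/- muscle and 5.10 in WT muscle. The WT mean lay below the detection limit (5.20 to 5.44), so the size of the difference rests on background values. Of 3 measured genes of metal handling none passed (median 0.10), and *Mtf1*, which encodes the metal-responsive factor itself, was at 0.19 (adjusted p = 0.599). Of 6 genes in the glucocorticoid list 1 was higher and 5 did not pass (median 0.08). The one that rose was *Nr3c1*, which encodes the glucocorticoid receptor itself, so its rise is not read here as induction by glucocorticoids. Its mean was 6.88 in Adck2+/- muscle and 5.98 in WT muscle, a log2 fold change of 0.90 (standard error 0.17, adjusted p = 0.0129), with every Adck2+/- value above every WT value. The probe was dim, with a WT mean not far above the detection limit (5.20 to 5.44). *Klf9*, an induced gene, was at 0.21 (adjusted p = 0.304).

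In liver, 4 of the 13 member probes were detected on at least 5 of 10 arrays, and none of the 4 differed by genotype past the test. Over all 12083 liver probes 0.0% were called by limma, with 777 probes and 2 of the 4 member probes at an unadjusted p under 0.05. The genotypes overlapped for all 4, while 1.63% of all liver probes had groups that did not overlap (197). *Fbxo32* ILMN_2752994 read 5.15, 5.38, 5.80, 5.43 and 5.78 in Adck2+/- mice 1 to 5, against 5.70, 5.55, 6.0, 6.42 and 6.42 in WT mice 1 to 5. It was near the detection limit, undetected in 1 Adck2+/- mouse, and its log2 fold change was −0.51 (standard error 0.20, adjusted p = 0.701). *Mt2* read 5.66, 5.83, 5.85, 5.75 and 5.47 in Adck2+/- mice 1 to 5, against 5.55, 4.97, 5.12, 5.41 and 5.69 in WT mice 1 to 5. It was detected in 5 Adck2+/- and 2 WT mice, the opposite of muscle, with a log2 fold change of 0.36 (standard error 0.15, adjusted p = 0.761). *Mt1* averaged 10.84 ± 0.41 in Adck2+/- and 10.95 ± 0.37 in WT liver (SD, n = 5 each, log2 fold change −0.11, 95% interval −0.61 to 0.39), and *Fbxo30* ILMN_2431871 averaged 8.80 ± 0.18 in Adck2+/- and 8.88 ± 0.21 in WT liver (−0.08, 95% interval −0.38 to 0.22).

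None of the 11 member probes had a genotype effect that differed between muscle and liver past the test, in a fit of all 20 arrays where 0.187% of 13890 probes did (26). For *Fbxo32* ILMN_2715893 the effect in muscle minus that in liver was 1.32 (standard error 0.28, adjusted p = 0.0503), on a probe that was undetected in liver in both genotypes. It passed without muscle WT mouse 1 (adjusted p = 0.0465), muscle WT mouse 2 (0.0467), or muscle Adck2+/- mouse 1 (0.0278), 2 (0.0328) or 5 (0.0392), and with no background correction (1.19, adjusted p = 0.0310). In the other 15 of 20 fits with 1 array left out it did not pass (adjusted p up to 0.107). For *Fbxo40* it was 1.05 (adjusted p = 0.0720) on ILMN_3125905 and 0.92 (adjusted p = 0.0866) on ILMN_3163206, both undetected in liver as well. Both passed without muscle WT mouse 2 (adjusted p = 0.0390 and 0.0420) and without muscle Adck2+/- mouse 5 (0.0419 and 0.0399), and ILMN_3125905 also without muscle Adck2+/- mouse 2 (0.0237). They did not pass in the other 17 and 18 of 20 such fits (adjusted p up to 0.148 and 0.163). The dimmer probe ILMN_3049851 was at 0.88 (adjusted p = 0.160) and passed without muscle Adck2+/- mouse 5 (0.0304), but in none of the other 19 such fits (adjusted p up to 0.295). *Mt2* was at −0.91 (standard error 0.22, adjusted p = 0.0758) and *Mt1* at −0.83 (standard error 0.39, adjusted p = 0.329). Without background correction the values of the dim probes were smaller and none passed, at 0.58 for ILMN_3125905 (adjusted p = 0.0570), 0.35 for ILMN_3163206 (0.117), 0.33 for ILMN_3049851 (0.152) and −0.28 for *Mt2* (0.114).

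Muscle and liver differed widely, and the members were no exception. In WT mice, 77.2% of 13890 probes differed between muscle and liver past the test, and 8 of the 11 member probes did, a share near that of all probes. These 8 were higher in muscle, but the *Trim63* probe, the 3 *Fbxo40* probes and *Fbxo32* ILMN_2715893 were detected on 0 of 10 liver arrays, so they entered the test through muscle and had to be higher there. *Fbxo32* ILMN_2873444, detected in 1 of 5 WT and 0 of 5 Adck2+/- livers, entered through muscle as well, so its call is no open test either. *Fbxo32* ILMN_2752994 averaged 12.47 ± 0.19 in WT muscle and 5.95 ± 0.39 in WT liver with the 20 arrays normalized together (SD, n = 5 each), a difference of 6.52 on the log2 scale, and of 4.93 without background correction. Where a probe was undetected in most or all WT livers, the fold is a lower bound with undetected values at the detection limit, and the smaller of the bounds with and without background correction is given. WT muscle was at least 14.8-fold higher for *Fbxo32* ILMN_2873444, which was detected in 1 of 5 WT livers. The bound was at least 6.21-fold for *Fbxo32* ILMN_2715893 and at least 8.60-fold for *Trim63*. It was at least 1.40-fold and 1.11-fold for *Fbxo40* ILMN_3125905 and ILMN_3163206, while ILMN_3049851 was too dim for a bound. *Fbxo30* ILMN_2431871 was 1.86-fold higher in muscle. *Mt1* differed by 0.41 (95% interval −0.16 to 0.98, adjusted p = 0.179) and *Mt2* by 0.28 (95% interval −0.04 to 0.60, adjusted p = 0.102), and ILMN_2861445 of *Fbxo30* by 0.22 (adjusted p = 0.320), so the order of the tissues was not settled for these 3 probes. On this joint scale *Mt1* read 9.91, 9.97, 9.80 and 10.12 in the muscle of Adck2+/- mice 1 to 4 and 11.42 in that of mouse 5, against 10.40 to 11.35 in WT livers. The values of Adck2+/- mice 1 to 4 lay below every WT liver.

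**Figure D5:**
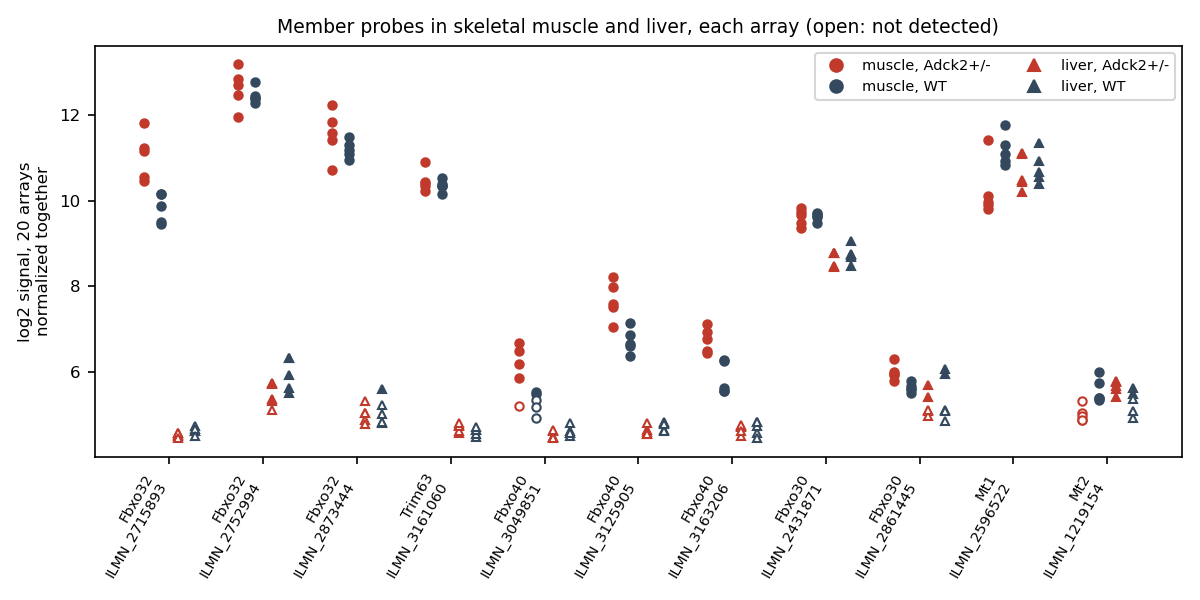
Log2 signal of the 11 member probes on all 20 arrays, normalized together, with muscle as circles and liver as triangles, Adck2+/- in red and WT in blue; open symbols were not detected. The Fbxo32 and Trim63 probes lay far higher in muscle than in liver, the dim Fbxo40 probes were undetected in liver, and Mt1 and Mt2 lay at overlapping levels in the 2 tissues.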

How the data were processed

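Total RNA of gastrocnemius muscle and of liver was measured on 1-colour Illumina bead arrays. The intensity values were deposited by the authors as the mean signal of each probe, linear and without normalization between arrays, each with a deposited detection p-value. A deposited value table of the same intensity signals served as an alternative only, and 0 columns of samples were left unused. How the scanner treated the background is not given in the sources used here. Within a tissue, signals were background-corrected from the detection p-values (neqc, offset 16), quantile normalized and log2 transformed in R 4.3.3 with limma 3.58.1. A probe entered the test when at least 5 of 10 arrays detected it (p under 0.05). Genotypes were compared per probe with lmFit and eBayes, adjusted by Benjamini-Hochberg over all probes kept. Tissues and the difference of genotype effects were tested in a fit of 20 arrays normalized together. Probe pairs were compared by exact permutation and correlations with 100000 permutations in scipy 1.17.1, and figures were drawn with matplotlib 3.10.9. The study's statistics name a paired t-test, run here as an alternative. Equal replicate numbers are not said to mark shared litters or days, so the arrays were not treated as paired. The deviations of same-numbered Adck2+/- and WT arrays correlated at −0.19 to 0.21 in muscle and at −0.61 to 0.35 in liver. With 5 pairs per tissue these values cannot settle whether the numbers mark pairs. Muscle and liver arrays of equal number had a consensus correlation of −0.00394. On simulated muscle data the test recovered 16.4%, 91.0% and 100% of probes changed by 0.5, 1 and 2 (log2), with 8 false calls among 12115 probes. On simulated liver data it recovered 7.46%, 68.7% and 100%. The simulated noise was independent between probes and few probes were changed, so these figures need not hold for the arrays. The number of arrays limits the precision. The members and lists were chosen with earlier results of these data known. All member probes are named, and of each pathway list the genes with the smallest p, which include every gene called. Alternatives covered background, scaling, filter, probe choice, model, table and each array left out.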

Additional observations from a re-analysis of the deposited data

Results flagged for a closer look

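One value stood far from the others of its group, among 30 groups of 5 arrays examined, where chance gives about 1 in 20. *Mt1* in the muscle of Adck2+/- mouse 5 was at 11.21, against 9.64 to 9.94 in the other 4 Adck2+/- mice, and its gap to the nearest of them made up 0.808 of the range of the group (critical value 0.71). The same array had the highest means of the adipocyte markers (9.99) and of the denervation genes (8.52) among the 10 muscle arrays, and their part in the *Mt1* value was not tested. Without this array the log2 fold change of *Mt1* was −1.21 (adjusted p = 0.0107 from limma), against −0.92 with it (adjusted p = 0.0744).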

How the results depend on the processing

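The 5 arrays per group and the dim signals of *Fbxo40* and *Mt2* limit these results. Of the 11 member probes in muscle, 3 were called higher and 0 lower. With a replicate block, and with the methods' paired test, 0 were higher at an adjusted p under 0.05, where each also left 0 calls over all probes in muscle. The study's threshold was an unadjusted p of at most 0.05. By that threshold the paired t-test passed 5 of the 11 member probes and 2230 of 12115 probes in muscle. With the replicate block the *Fbxo32* probe ILMN_2715893 had an adjusted p of 0.0713 from limma and the *Fbxo40* probes ILMN_3163206 and ILMN_3125905 had 0.0857 and 0.0886, at unchanged fold changes. With 1 probe per gene 1 member probe was higher, where 163 of 8424 genes were higher by their brightest probe in the main fit. At an adjusted p under 0.10 there were 5 higher and 2 lower. That threshold is loose, as at least 1358 of all 12115 probes in muscle passed it. There was 1 lower with median scaling, with array weights, and without both WT mouse 2 and Adck2+/- mouse 5. Leaving out each array in turn gave 1 to 4 higher and 0 to 1 lower, and the lower call was *Mt1* without Adck2+/- mouse 5 and *Mt2* without Adck2+/- mouse 4. The *Mt2* probe was also 1 of the 2 lower at an adjusted p under 0.10. It entered the test through the WT mice alone and could only be lower. Over all probes in muscle the calls ranged with single arrays left out from 196 to 657 higher and from 28 to 699 lower.

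The *Fbxo32* probe differences kept their sign, at 0.85 to 1.11 and 0.68 to 0.94 against ILMN_2752994 and ILMN_2873444, and −0.22 to −0.15 between those, with single arrays left out. The first and second of these then lost their call in 8 of 10 cases each (adjusted p = 0.0556), where the p of both was the smallest that 9 arrays allow. The effect in muscle minus that in liver passed for 1 member probe without background correction, and for 0 to 4 with single arrays left out. In the main fit 0.187% of 13890 probes passed, and the share of all probes was not counted for these alternatives.

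Signs turned only for values that had not passed. *Fbxo30* ILMN_2431871 in muscle was 0.0564 without both of those mice and −0.0737 to 0.0381 with single arrays left out. *Trim63* ranged from −0.00455 to 0.16 in the same way. In liver, median scaling, which moved the median of all liver probes to 0.15, put *Fbxo30* ILMN_2431871 at 0.10 and *Mt1* at 0.0568, and single arrays left *Mt1* at −0.22 to 0.0329. The effect in muscle minus that in liver ranged from −0.0868 to 0.0817 for *Trim63* and from −0.0195 to 0.13 for ILMN_2431871. The differences between *Fbxo40* probes ranged from −0.24 to 0.0479 (ILMN_3049851 minus ILMN_3125905), from −0.22 to 0.0381 (ILMN_3049851 minus ILMN_3163206) and from −0.0769 to 0.15 (ILMN_3125905 minus ILMN_3163206). Correlations over the 10 muscle arrays turned for *Mt1* with *Mt2* (r = −0.28) and *Mt1* with *Fbxo32* (0.15) after subtracting genotype means, and for *Fbxo32* with *Trim63* (−0.0274), *Mt2* with *Trim63* (−0.37) and *Fbxo30* with *Fbxo40* (0.44) without the 2 farthest arrays. The pairs with *Foxo3* were not run, as its probe was undetected. The cause of these changes was not tested.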
